A study of Homo sapiens with 24 samples.

Results

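Serum response early genes are genes whose transcription starts within a short time of growth factor exposure. Of these, 7 were taken by name: *EGR1*, *FOS*, *FOSL1*, *MYC*, *DUSP1*, *KLF6* and *KLF10*. All 7 of the 7 names were found among the 13236 gene groups of the count tables, and they comprise 20 of the 164219 bins into which the authors divided the gene models. Each gene was counted over its bins other than detained introns, the introns that stay in polyadenylated transcripts held in the nucleus. None of the 20 bins carries the detained intron class (0 of the 4769 bins of that class belong to these genes).

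The cells were HEK293T, an established line of human embryonic kidney cells transformed with adenovirus DNA and carrying the SV40 large T antigen. They were grown in 6-well plates to about 80% confluence, and fresh medium was given 3 h before treatment. Cells then received the solvent DMSO, 10 µM OSMI-2 or 5 µM TMG. OSMI-2 blocks OGT, the enzyme that adds O-GlcNAc to proteins, and TMG blocks OGA (*MGEA5* in the tables), which removes it. Treatment lasted 2 h or 6 h, so RNA was taken 5 h or 9 h after the medium change. Each drug and time had DMSO libraries of its own, and these 2 sets are called the OSMI-2 experiment and the TMG experiment. The 8 groups had 3 polyadenylated, stranded RNA-seq libraries each, apart from the 2 for 6 h of OSMI-2, where 1 more sample was not analysed here. All groups share the medium change and the cell line, and no group lacked fresh medium. The labels do not say whether the medium held serum, nor which sample had its RNA taken with Trizol and which with a column kit, nor whether replicates came from separate cultures. P-values therefore measure the spread between these libraries, which may be technical.

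Growth factors in serum act through receptor tyrosine kinases, RAS and the kinases RAF, MEK and ERK, and through actin and the coactivators MKL1 and MKL2. Both routes meet at the serum response factor SRF, which binds the CArG box of target promoters together with ELK family proteins or MKL proteins. Early transcripts need no new protein for their induction and are mostly short-lived, so their level follows transcription closely and usually falls back after a peak. EGR1 is a zinc finger activator; FOS and FOSL1 pair with JUN proteins to form the AP-1 factor. MYC pairs with MAX at E-boxes and drives growth genes. DUSP1 is a nuclear phosphatase that inactivates MAP kinases and so closes the loop. KLF6 and KLF10 are zinc finger factors of the Krüppel-like family, KLF10 being a repressor also known as a TGF-beta inducible early gene.

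The promoters are shown for the binding motifs of these pathways that lie next to the start sites. Of the 7 genes, 4 matched the RefSeq promoter table used (GRCh38.p14, 35116 promoters): *EGR1*, *FOS*, *DUSP1* and *KLF6*. The 250 bases before each start are printed 5′ to 3′ on the gene's strand. Capitals mark matches, on either strand, to the CArG box, the cyclic AMP response element TGACGTCA, the E-box CACGTG, the AP-1 site TGACTCA or the TATA element TATAAA; no match overlaps another. The windows are chr5:138465229-138465478 (plus strand) for *EGR1*, chr14:75278578-75278827 (plus) for *FOS*, chr5:172771196-172771445 (minus) for *DUSP1* and chr10:3785210-3785459 (minus) for *KLF6*.
EGR1: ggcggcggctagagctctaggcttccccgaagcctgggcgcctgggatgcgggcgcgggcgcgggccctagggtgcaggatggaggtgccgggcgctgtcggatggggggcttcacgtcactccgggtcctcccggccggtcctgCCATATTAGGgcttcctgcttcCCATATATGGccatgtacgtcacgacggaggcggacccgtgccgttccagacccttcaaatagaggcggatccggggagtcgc
FOS: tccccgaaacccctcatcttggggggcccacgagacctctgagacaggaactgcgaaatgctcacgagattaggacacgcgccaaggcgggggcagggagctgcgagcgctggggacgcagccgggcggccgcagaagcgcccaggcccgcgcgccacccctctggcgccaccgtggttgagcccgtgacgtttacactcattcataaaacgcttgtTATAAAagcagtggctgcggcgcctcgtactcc
DUSP1: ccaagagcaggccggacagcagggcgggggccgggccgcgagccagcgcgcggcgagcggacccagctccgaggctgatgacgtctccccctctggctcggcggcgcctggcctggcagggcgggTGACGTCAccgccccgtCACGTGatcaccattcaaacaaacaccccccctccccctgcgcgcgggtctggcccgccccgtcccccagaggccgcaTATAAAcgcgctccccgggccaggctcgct
KLF6: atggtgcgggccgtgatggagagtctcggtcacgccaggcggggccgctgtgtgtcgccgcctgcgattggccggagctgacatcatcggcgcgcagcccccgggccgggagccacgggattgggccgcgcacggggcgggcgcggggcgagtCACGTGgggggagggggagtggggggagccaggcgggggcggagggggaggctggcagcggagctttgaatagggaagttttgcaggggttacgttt

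*EGR1* has 2 exact CArG boxes, which begin 105 and 83 bases before the start, a motif found in 1.16% of all promoters in the table. *FOS* has a TATA element 33 bases before its start (10.7% of promoters have one), and no exact CArG box lies in this window. In *DUSP1* the cyclic AMP element (1.65% of promoters) begins at 125 bases, the E-box (6.34%) at 108 bases and the TATA element at 30 bases before the start. *KLF6* has an E-box 97 bases before its start. The AP-1 site, present in 4.2% of promoters, was found in 0 of the 4. These matches describe letters in 250 bases and say nothing of which factor was bound.

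The shallowest library had 39465746 counts and the deepest 100161560. The 7 kidney line markers fixed for the check (*VIM*, *KRT8*, *KRT18*, *CDH2*, *LIN28B*, *NEFM*, *PAX2*) were all present, at 566 to 988 CPM (counts-per-million of the plain table total) in sum, and 3 of 8 markers of other cell types were in the tables, at 7.32 to 23 CPM in sum. The sum of the 7 was mostly *VIM*, at group means of 314 to 766 CPM. *NEFM* (0.327 to 2.17 CPM) and *PAX2* (1.43 to 3.77 CPM) were low. They lay within the levels of the other cell type markers, from 0.236 CPM for *COL3A1* to 19.6 CPM for *COL1A1*. *LIN28B* was at 5.68 to 7.69 CPM in the OSMI-2 experiment and 65.6 to 110 CPM in the TMG experiment. The experiments differed in how counts followed base composition: per 10 points of GC content, log2 counts rose by 0.442 to 1.11 in OSMI-2 experiment libraries and changed by -0.475 to -0.194 in those of the TMG experiment. DMSO 6 h library a of the OSMI-2 experiment stood apart with the value of 0.442, against 0.818 to 1.11 in the other 10. Detained introns held 0.756% to 1.21% of counts in the DMSO 6 h libraries of that experiment and 0.232% to 0.669% in every other library. For the early genes, folds that rest on those DMSO 6 h libraries are given with and without library a; list genes are given with it only.

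Per length, *MYC* had the highest and *FOSL1* the lowest mean level of the 7 in every group. Gene and bin coordinates from here on are those of the tables, in hg19. Only 1 bin of *MYC* is listed (8:128748316-128748869, plus strand, 554 bases, classed by the authors as a complex first exon, 23.4% of the transcript length) and only 1 of *EGR1* (5:137801182-137801757, plus strand, 576 bases, a constitutive first exon, 18.4% of the transcript length), so levels were divided by the length of the listed bins. Listed bins covered 49.4% of the transcript length for *KLF10*, and 72.2% to 100% for *DUSP1*, *FOSL1*, *FOS* and *KLF6*. The order therefore compares unlike parts of the genes. In the DMSO 2 h group of the TMG experiment the mean level was 27.4 CPM per kb for *MYC*, 9.50 for *DUSP1*, 5.21 for *KLF10*, 3.06 for *KLF6*, 0.732 for *FOS*, 0.323 for *EGR1* and 0.0619 for *FOSL1* (n = 3). No neighbours in that order overlapped. At 6 h *KLF6* (4.79 CPM per kb) stood above *KLF10* (2.72 CPM per kb), so these zinc finger genes had changed places. In the DMSO groups of the OSMI-2 experiment *KLF6* and *KLF10* overlapped at both times (1.06 and 1.19 CPM per kb at 2 h, 1.76 and 1.39 at 6 h). *EGR1* and *FOSL1* were near the limit of detection, with 0 to 13 and 1 to 19 counts per library; the single 0, for *EGR1* in TMG 6 h library c, allows up to 0.0709 CPM (3 counts, counting error only).

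**Figure D1:**
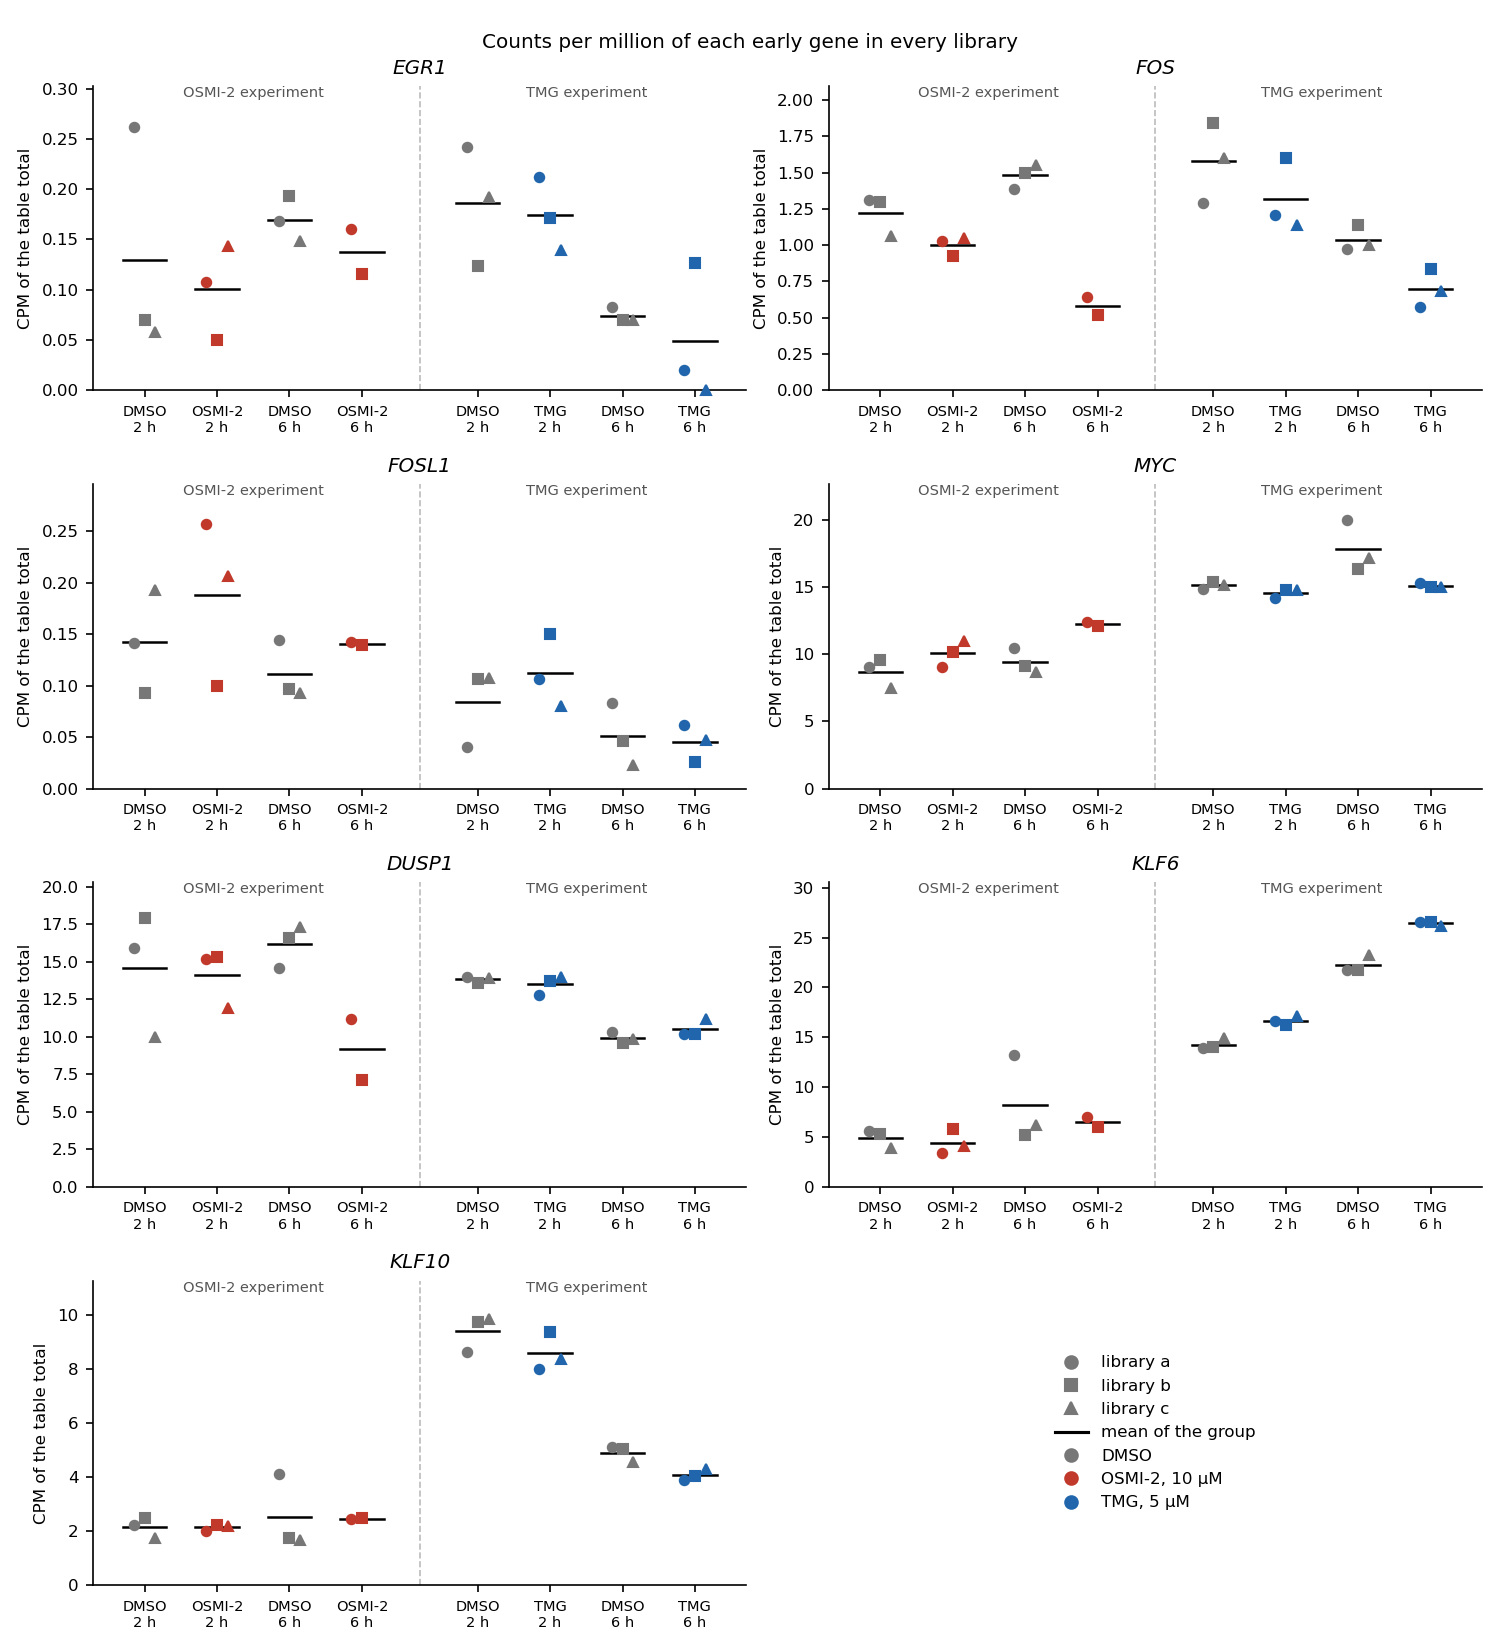
CPM of the table total (y axes, linear, from 0) for the 7 genes in 23 libraries, by group, with bars at group means. In the TMG experiment, *KLF6* runs from 13.9 to 14.9 CPM in DMSO at 2 h and from 21.8 to 23.3 CPM at 6 h, *KLF10* from 8.64 to 9.85 CPM and from 4.55 to 5.13 CPM.

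By the number of early genes called, the leading comparison was time in DMSO within the TMG experiment. Between 5 h and 9 h after the medium change *FOS*, *DUSP1* and *KLF10* fell and *KLF6* rose. Of the 5 genes tested 4 passed the threshold, an adjusted p under 0.05 (edgeR's quasi-likelihood test with Benjamini-Hochberg adjustment over 12294 genes), against 45.9% of all genes tested; their median log2 fold change was -0.54, against -0.071 for all genes. Change between these times was thus common, and the share of these genes called is read against that background. In RNA from whole cultures, fewer expressing cells and less RNA per cell cannot be told apart. Over all genes 2000 were called higher and 3641 lower, and 2913 and 2918 with TMM over genes only. All 5 of the 5 had no overlap between the groups, as did 54% of all genes tested.

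Among the AP-1 and EGR factors, *FOS* (14:75745482-75748936, plus strand, 4 constitutive exon bins) had 1.29, 1.84 and 1.60 CPM at 2 h and 0.971, 1.14 and 0.999 CPM at 6 h, from 43 to 104 counts. Every 6 h library was lower than every 2 h library. The log2 fold change was -0.67 (SE 0.20; edgeR adjusted p 0.00965), and without DMSO 2 h library b it was -0.55 (edgeR adjusted p 0.0709; over all alternatives 0.00735 to 0.0726). *EGR1* had 12, 7 and 9 counts at 2 h and 4, 3 and 3 counts at 6 h, and its groups did not overlap in CPM either. It was under the count filter; fitted without the filter its log2 fold change was -1.33 (SE 0.58; edgeR adjusted p 0.0639). *FOSL1* (11:65659689-65667997, minus strand, 2 bins) had 2, 6 and 5 counts at 2 h and 4, 2 and 1 at 6 h, which overlap (log2 fold change -0.74, SE 0.77, without the filter).

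*MYC* had 14.9, 15.4 and 15.2 CPM at 2 h and 20, 16.4 and 17.2 CPM at 6 h. Each 6 h library lay above each 2 h library, with library a the highest. Its log2 fold change of 0.18 (SE 0.10; edgeR adjusted p 0.125) did not pass. It did pass, at 0.24 to 0.28, with the plain table total (adjusted p 0.036), with TMM over genes only (0.0251), with the GC trend removed (0.00441) and without DMSO 6 h library b (0.0494, log2 fold change 0.26).

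*DUSP1* (5:172195091-172197634, minus strand, 4 constitutive exon bins), the phosphatase of the set, had 14.0, 13.6 and 13.9 CPM at 2 h and 10.3, 9.57 and 9.85 CPM at 6 h. The spread within each group was small beside the distance between them, and the log2 fold change was -0.54 (SE 0.10; edgeR adjusted p 7.23e-05).

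*KLF6* (10:3818186-3827473, minus strand, 4 constitutive exon bins) and *KLF10* (8:103663377-103667983, minus strand, 4 bins) moved in opposite directions. *KLF6* had 13.9, 14.0 and 14.9 CPM at 2 h and 21.8, 21.8 and 23.3 CPM at 6 h, a log2 fold change of 0.59 (SE 0.09; edgeR adjusted p 6.66e-06). *KLF10* had 8.64, 9.75 and 9.85 CPM at 2 h and 5.13, 5.05 and 4.55 CPM at 6 h, a log2 fold change of -1.0 (SE 0.11; edgeR adjusted p 1.53e-07). Both kept their call under every alternative run, whereas *FOS* and *DUSP1* lost theirs in 1 fit of all 23 libraries (-0.56 with adjusted p 0.0726 and -0.43 with adjusted p 0.11).

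**Figure D2:**
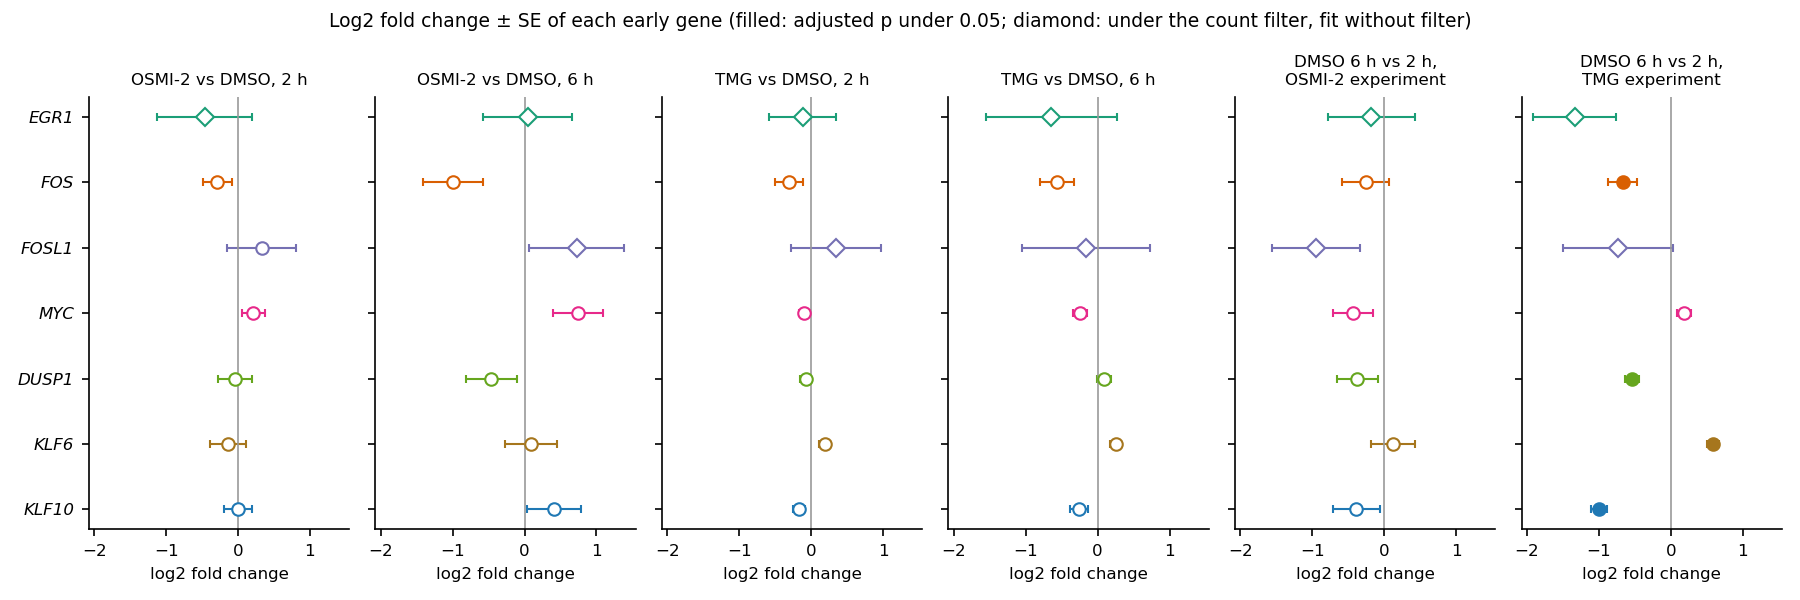
Log2 fold change ± SE (x axis) of each gene in the 6 comparisons; filled circles passed an adjusted p of 0.05, and diamonds are genes under the count filter, fitted without it. The only filled points are *FOS*, *DUSP1*, *KLF6* and *KLF10* between DMSO times in the TMG experiment.

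Other genes of the serum response, from lists fixed by name, are to be read against the 45.9% of all genes called over this interval, among which falls also outnumbered rises. Of 32 other immediate early genes 27 were in the tables and 23 were tested; 9 fell and 2 rose, with a median log2 fold change of -0.342. The largest falls were those of *ID1* (-1.17, SE 0.14, edgeR adjusted p 3.64e-07) and *ID3* (-1.11, SE 0.09, edgeR adjusted p 1.86e-09), inhibitors of basic helix-loop-helix factors. The rises were those of the stress-induced factor *ATF3* (1.0, SE 0.13) and the orphan nuclear receptor *NR4A2* (0.44, SE 0.17). Among ERK feedback genes, which mostly restrain ERK signalling and of which 9 of 12 were tested, 5 fell and 1 rose (median -0.484). They included the phosphatases *DUSP2* (-1.13, SE 0.21) and *DUSP5* (-1.08, SE 0.20), which fell as *DUSP1* did, and *DUSP16*, which rose (0.73, SE 0.09).

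Upstream, 6 of the 22 serum response regulators fell and 2 rose, with a median of -0.096, close to that of all genes. *SRF* itself fell (-0.47, SE 0.09, edgeR adjusted p 0.000312), as did the ERK1 gene *MAPK3* (-0.49, SE 0.08), and the kinase gene *BRAF* rose (0.58, SE 0.09). *OGT* rose (0.60, SE 0.07, edgeR adjusted p 4.77e-07). In the MYC network 3 of 11 genes tested fell and 2 rose (median -0.047): *MXD4*, a MYC antagonist, and *MAX* fell (-0.36, SE 0.08, and -0.34, SE 0.07), and *MGA* and *MYCBP2* rose (0.61, SE 0.08, and 0.64, SE 0.08). Over the same interval 4 of the 7 kidney line markers also fell and 1 rose. Their summed level, mostly *VIM*, went from 908 to 969 CPM at 2 h to 622 to 632 CPM at 6 h. *LIN28B* went up, from a mean of 65.6 to 91.8 CPM. The GC slope went from between -0.239 and -0.194 to between -0.442 and -0.281. The part of the markers and of the GC slope in these changes was not tested.

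**Figure D3:**
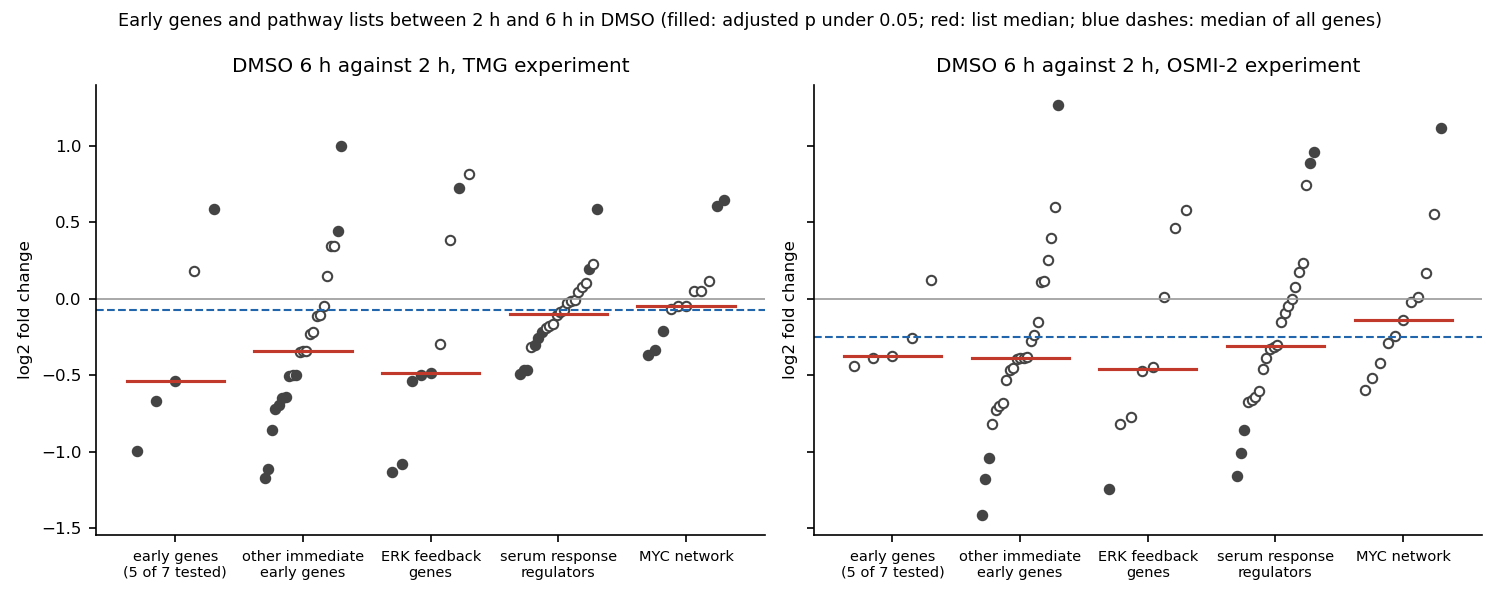
Log2 fold change (y axis) of each tested gene between 2 h and 6 h in DMSO, by list; filled points passed an adjusted p of 0.05, red bars are list medians and the dashed line the median of all genes (-0.071 in the TMG experiment, -0.251 in the OSMI-2 experiment). In both experiments the medians of the early, other immediate early and ERK feedback genes and of the regulators lie below the dashed line. That of the MYC network lies above it in both.

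In the OSMI-2 experiment the same interval in DMSO gave no call among these genes. Of 5 tested, 0 passed, against 18.5% of all genes tested. At an unadjusted p under 0.05 there were also 0 of the 5, against 4198 of all 12356 genes. DESeq2 called 0 of the 5. Scaling moved the median of all 12356 genes from -0.251 (TMM over genes and detained introns) to 0.315 (plain total), and the calls from 571 higher and 1721 lower to 1635 higher and 102 lower. Directions are therefore given relative to that median. On that basis *KLF6* was higher at 6 h (0.37 with TMM, 0.42 with the plain total), and *MYC* (-0.19 and -0.20), *DUSP1* (-0.12 and -0.17), *KLF10* (-0.14 and -0.09) and *FOS* (-0.01 and -0.04) were lower or level.

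The libraries behind those values did not move as one. *KLF6* had 5.56, 5.30 and 3.91 CPM at 2 h and 13.2, 5.16 and 6.24 CPM at 6 h. *KLF10* had 2.22, 2.48 and 1.74 CPM at 2 h and 4.12, 1.73 and 1.68 CPM at 6 h. In both genes the high 6 h value is library a, the one with the low GC slope. Both have a GC content under the median of genes (45.9% and 47.2%, against 49.3%). Of the tested genes above that median, *MYC* (53.9%) was also highest in library a, and *FOS* (52.6%) and *DUSP1* (55.1%) were lowest there. The part of base composition in these values was not tested. Without library a *KLF10* fell past the threshold, by 0.73 on the log2 scale (edgeR adjusted p 0.0222, and 0.414 with it). In that fit 4592 of 12416 genes passed, and the median of all genes was -0.259. The *KLF6* value turned from 0.12 to -0.19 (edgeR adjusted p 0.486), which was still above that median.

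The other 3 tested genes varied less between the 6 h libraries. *FOS* had 1.31, 1.30 and 1.06 CPM at 2 h and 1.39, 1.5 and 1.55 CPM at 6 h, the only one of the 5 whose groups did not overlap (40.6% of all genes tested did not); its log2 fold change was -0.26 (SE 0.33) with TMM, 0.28 with the plain total and -0.09 without library a. *MYC* had 9.05, 9.59 and 7.50 CPM at 2 h and 10.5, 9.13 and 8.70 CPM at 6 h (-0.44, SE 0.28, edgeR adjusted p 0.272; 0.12 with the plain total; -0.38 without library a, adjusted p 0.103). It passed in 1 fit of all libraries, at -0.48 with an adjusted p of 0.00219, as did 6137 of 12686 genes. *DUSP1* had 15.9, 17.9 and 10.0 CPM at 2 h and 14.6, 16.6 and 17.3 CPM at 6 h, with 2 h library c the lowest (-0.38, SE 0.29; 0.15 with the plain total, -0.19 without library a). Without library a the *FOS* and *DUSP1* values lay above the median of all genes (-0.259) and that of *MYC* below it. *EGR1* had 13, 3 and 3 counts at 2 h and 7, 10 and 8 at 6 h, and *FOSL1* 7, 4 and 10 and then 6, 5 and 5.

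In the lists of that experiment, where 18.5% of all genes were called, 3 of 23 other immediate early genes fell and 1 rose, and of the ERK feedback genes 1 of 8 fell and 0 rose. With TMM the median log2 fold changes of these lists were -0.39 and -0.46. That of the tested early genes was -0.375, against -0.251 for all genes. *ID1* (-1.41, SE 0.30, edgeR adjusted p 0.00196), *ID3* (-1.18, SE 0.27) and *DUSP2* (-1.24, SE 0.31) passed, and each has no overlap between its groups. Of the 22 regulators 3 fell and 2 rose, among them *HRAS* (-1.16, SE 0.28) and the MEK2 gene *MAP2K2* (-1.01, SE 0.29) downward and the SRF partners *ELK4* (0.96, SE 0.29) and *MKL2* (0.89, SE 0.31) upward. In the MYC network *MGA* rose (1.11, SE 0.29) and 0 of 11 fell. *OGT* rose (1.81, SE 0.29, edgeR adjusted p 0.000107). Summed kidney line markers were at 951 to 988 CPM at 2 h and 634 to 758 CPM at 6 h.

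Whether the DMSO time change itself differed between the experiments was tested as an interaction, and *MYC* passed (13.2% of all genes did: 451 higher and 1210 lower, or 2563 and 81 with the plain total). Its change was lower in the OSMI-2 experiment by 0.77 on the log2 scale (interaction -0.77, SE 0.22, edgeR adjusted p 0.0306, over the alternatives 0.000203 to 0.732). That call was lost with the plain table total (-0.12, adjusted p 0.732), with TMM over genes only (-0.58, adjusted p 0.0853) and without any 1 of 8 libraries: DMSO 2 h a or b of the OSMI-2 experiment, or any DMSO library of the TMG experiment. Without DMSO 6 h library a of the OSMI-2 experiment *KLF6* passed as well (-1.21, adjusted p 0.00012), as did 7130 of 12614 genes (median of all genes -0.55), and the *KLF10* value turned from 0.46 to -0.17. The falls of *FOS*, *DUSP1* and *KLF10* seen in the TMG experiment were not shown to differ from their values in the OSMI-2 experiment (interactions 0.25, 0.02 and 0.46, edgeR adjusted p 0.605, 0.971 and 0.316). The median interaction of all genes was -0.288, and 0.38 with the plain total. Relative to that median these genes were at 0.54, 0.31 and 0.75, and with the plain total at 0.51, 0.25 and 0.78. *MYC* was at -0.48 relative to it, and at -0.5 with the plain total. The relative values were not tested. With the plain total *FOS* did pass (0.89, adjusted p 0.0292).

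Levels in DMSO differed between the experiments at both times. At 2 h *KLF10* averaged 9.41 ± 0.67 CPM (SD, n = 3) in the TMG experiment and 2.15 ± 0.37 CPM (SD, n = 3) in the OSMI-2 experiment, a ratio of 4.39. *KLF6* was 2.90 times and *MYC* 1.74 times as high, with no overlap in any of these, while *FOS*, *DUSP1*, *EGR1* and *FOSL1* overlapped. At 6 h *KLF6* (ratio 2.72), *KLF10* (1.95) and *MYC* (1.89) were higher in the TMG experiment. *EGR1* (0.437), *FOSL1* (0.458), *DUSP1* (0.613) and *FOS* (0.699) were lower, and none of the 7 overlapped. The share of all genes without overlap between the experiments was not determined, at 2 h or at 6 h. These levels are therefore a description and no result particular to the early genes. *KLF6* and *KLF10* have the lowest GC content of the 7, and the GC slopes of the 2 sets of libraries do not overlap, so the experiment and base composition cannot be told apart here.

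TMG for 2 h changed none of these genes past the threshold: 0 of 5 tested, against 7.91% of all genes tested (154 higher and 824 lower, or 256 and 347 with the plain total). DESeq2 called 0 of the 5. Among them only *KLF6* had an unadjusted p under 0.05 (0.0153 by edgeR), as did 2873 of all 12365 genes tested. *KLF6* had 16.6, 16.2 and 17.1 CPM with TMG and 13.9, 14.0 and 14.9 CPM with DMSO, so every treated library was higher (log2 fold change 0.19, SE 0.07, edgeR adjusted p 0.113). *MYC* had 14.2, 14.8 and 14.8 CPM with TMG against 14.9, 15.4 and 15.2 CPM. The difference was small (-0.09, SE 0.07), although the groups did not overlap; 26.5% of all genes tested had no overlap. *FOS* (1.21, 1.60 and 1.14 CPM with TMG; -0.31, SE 0.19), *KLF10* (8.02, 9.39 and 8.39 CPM; -0.17, SE 0.09) and *DUSP1* (12.8, 13.7 and 14.0 CPM; -0.07, SE 0.08) overlapped with DMSO.

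Called genes of the lists at that time were few. *ID3* fell (-0.28, SE 0.06, edgeR adjusted p 0.00737), 1 of 23 other immediate early genes, with 0 rising. *ELK4* rose (0.32, SE 0.07), 1 of 22 regulators, and *MYCBP2* rose (0.22, SE 0.05), 1 of 11 in the MYC network. Of 9 ERK feedback genes 0 were called by edgeR, with 2 at an unadjusted p under 0.05. *OGT* and *MGEA5*, the targets of the drugs, were not called at 2 h.

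At 6 h TMG again gave 0 of 5 calls, against 6.1% of all genes tested (145 higher and 592 lower, or 233 and 468 with TMM over genes only). Of the 5, 4 had an unadjusted p under 0.05, as did 2715 of all 12090 genes tested, with *KLF6* next to the threshold. *KLF6* had 26.6, 26.6 and 26.2 CPM with TMG and 21.8, 21.8 and 23.3 CPM with DMSO; its log2 fold change was 0.25 (SE 0.08; edgeR adjusted p 0.0572, over the alternatives 0.0191 to 1). It passed by DESeq2 (adjusted p 0.0277), with the GC trend removed (0.0191), with TMM over genes only (0.035) and without DMSO 6 h library a (0.0223). *FOS* had 0.577, 0.836 and 0.685 CPM with TMG and 0.971, 1.14 and 0.999 CPM with DMSO (-0.57, SE 0.24, edgeR adjusted p 0.168). *KLF10* had 3.90, 4.05 and 4.32 CPM against 5.13, 5.05 and 4.55 CPM (-0.26, SE 0.12, adjusted p 0.21 by edgeR).

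*MYC* had 15.3, 15 and 15 CPM with TMG and 20, 16.4 and 17.2 CPM with DMSO (-0.24, SE 0.10, edgeR adjusted p 0.146). These 4 genes had no overlap between the groups, as did 29% of all genes tested, while *DUSP1* overlapped (10.2, 10.2 and 11.2 CPM with TMG; 0.09, SE 0.09). *EGR1* had 1, 5 and 0 counts with TMG against 4, 3 and 3 with DMSO. In the lists 0 of 23 other immediate early genes, 0 of 9 ERK feedback genes and 0 of 22 regulators were called by edgeR, with 5, 2 and 4 at an unadjusted p under 0.05. In the MYC network *MXI1*, another MYC antagonist, rose (0.32, SE 0.07) and *MLX* fell (-0.23, SE 0.07). *MGEA5* rose (0.72, SE 0.06, edgeR adjusted p 5.7e-06) and *OGT* fell (-0.48, SE 0.07, edgeR adjusted p 0.00159). The TMG effect on the early genes was not shown to differ between 6 h and 2 h: 0 of 5 were called, against 0.0242% of all genes. DESeq2 called 0 of the 5, and 0 of the 5 had an unadjusted p under 0.05, against 1033 of all 12402 genes tested.

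OSMI-2 for 2 h gave 0 calls among 6 of the genes tested, and 0% of all 12320 genes passed; 159 genes, none of the 6 among them, had an unadjusted p under 0.05, and DESeq2 called 1 gene. *FOS* had 1.03, 0.928 and 1.05 CPM with OSMI-2 and 1.31, 1.30 and 1.06 CPM with DMSO, and was the only one of the 6 without overlap (3.94% of all genes tested had none); its log2 fold change was -0.29 (SE 0.20). *MYC* had 9.07, 10.2 and 11 CPM with OSMI-2 (0.21, SE 0.16), *DUSP1* 15.2, 15.3 and 11.9 CPM (-0.04, SE 0.23), *KLF6* 3.43, 5.77 and 4.07 CPM (-0.14, SE 0.25) and *KLF10* 1.99, 2.22 and 2.20 CPM (0.00, SE 0.19). *FOSL1*, tested here alone among the 2-group comparisons, had 19, 10 and 13 counts with OSMI-2 against 7, 4 and 10 (0.33, SE 0.48). *EGR1* had 8, 5 and 9 counts with OSMI-2. Of the immediate early, ERK feedback, regulator and MYC network lists 0 genes were called by edgeR. Among them 2 had an unadjusted p under 0.05 (1 other immediate early gene and 1 ERK feedback gene). *OGT* and *MGEA5* were not called either, though 1 of these 2 had an unadjusted p under 0.05. *OGT* was at 44.4 to 78.7 CPM with OSMI-2 and 31.2 to 55.6 CPM with DMSO. *MGEA5* was at 42.2 to 54.5 CPM with OSMI-2 and 59.7 to 96.2 CPM with DMSO.

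At 6 h OSMI-2 had its widest differences in *FOS* and *MYC*, and neither passed: 0 of 5 were called, against 4.87% of all genes tested. These 2 had an unadjusted p under 0.05, as did 2883 of all 12486 genes tested, and DESeq2 called 0 of the 5. *FOS* had 0.640 and 0.522 CPM with OSMI-2 (36 and 45 counts) and 1.39, 1.5 and 1.55 CPM with DMSO (58 to 84 counts). Both treated libraries were under every DMSO library. The log2 fold change was -1.0 (SE 0.42; edgeR adjusted p 0.128) with TMM and -1.35 with the plain total, and relative to the median of all genes -1.15 and -1.11. *MYC* had 12.4 and 12.1 CPM with OSMI-2 and 10.5, 9.13 and 8.70 CPM with DMSO, again without overlap. Its log2 fold change was 0.75 (SE 0.35; edgeR adjusted p 0.175), 0.37 with the plain total, and relative to the median 0.60 and 0.61.

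Without DMSO 6 h library a, 3 genes passed, as did 5263 of 12402 genes in all: *FOS* (-1.11, edgeR adjusted p 0.0133), *MYC* (0.76, adjusted p 0.00506) and *KLF10* (0.83, adjusted p 0.0109). *FOS* and *MYC* passed with the GC trend removed too (adjusted p 0.0272 and 0.0126), where 3616 of 12486 genes did. *FOS*, *MYC* and *KLF10* also passed in 1 fit of all libraries, with 5974 of 12686 genes. The share of genes called in these fits was thus far above that of the comparison as designed. *KLF10* had 2.45 and 2.48 CPM with OSMI-2, between library a (4.12 CPM) and the other DMSO libraries (1.73 and 1.68 CPM). *DUSP1* had 11.2 and 7.13 CPM against 14.6, 16.6 and 17.3 CPM, with no overlap (-0.47, SE 0.35; relative to the median -0.61 and, with the plain total, -0.58; without library a -0.58, edgeR adjusted p 0.0856). *KLF6* had 6.99 and 6.00 CPM against 13.2, 5.16 and 6.24 CPM and overlapped (0.09, SE 0.37; without library a 0.48, edgeR adjusted p 0.0762). Together 3 of the 5 had no overlap between groups, as did 45.6% of all genes tested.

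In the lists, *ID3* rose (1.2, SE 0.30, edgeR adjusted p 0.0102), 1 of 25 other immediate early genes, with 0 falling. Of the 22 regulators 3 rose, *HRAS* (0.96, SE 0.31) and *MAP2K2* (1.04, SE 0.33) without overlap, and 0 fell; 0 of 9 ERK feedback genes and 0 of 11 genes of the MYC network were called by edgeR, with 1 in each at an unadjusted p under 0.05. All 7 kidney line markers had positive values and 1 passed; their sum was 865 to 903 CPM with OSMI-2 and 634 to 758 CPM with DMSO, and their part in these results was not tested. *OGT* (-1.85, SE 0.34) and *MGEA5* (-1.93, SE 0.33) fell, with edgeR adjusted p 0.000379 and 0.000151. Calls in this comparison were 312 higher and 296 lower over all genes, and 31 higher and 472 lower with TMM over genes only, so directions near 0 depend on the scaling. The plain total called 0 genes by edgeR.

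**Figure D4:**
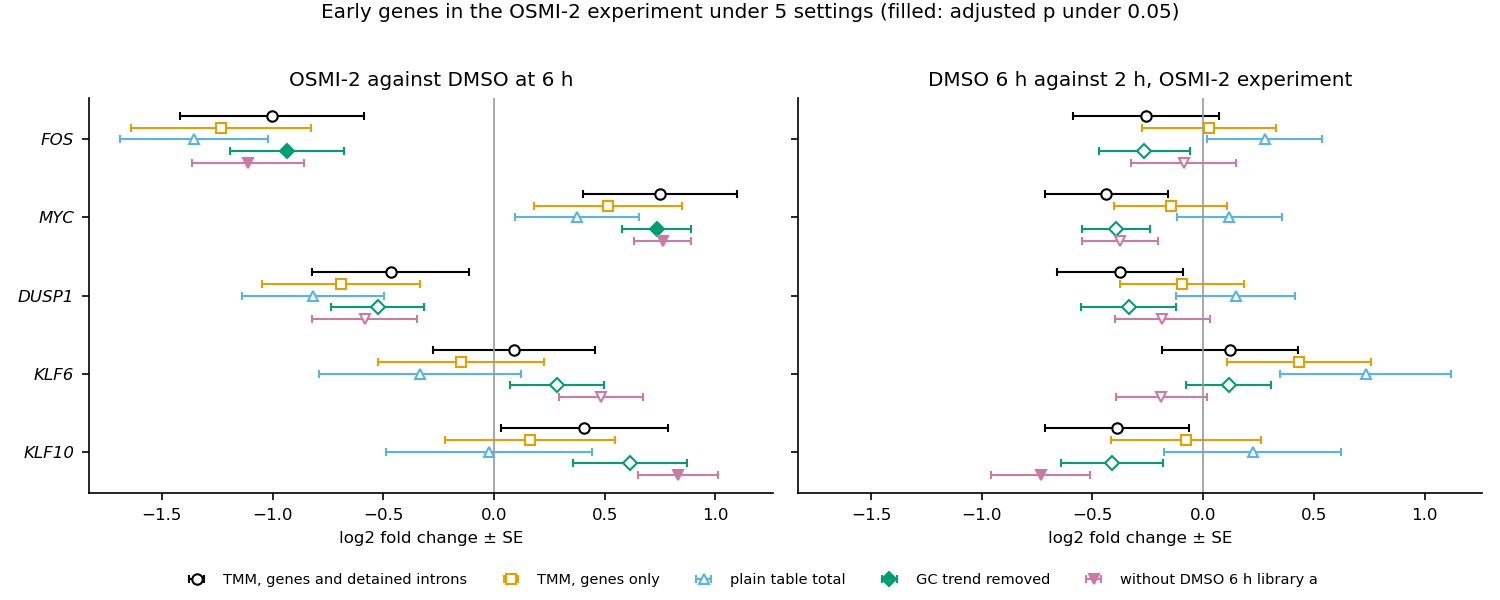
Log2 fold change ± SE (x axis) of the 5 tested genes with OSMI-2 at 6 h (left) and between DMSO times in the OSMI-2 experiment (right) under 5 settings; filled points passed an adjusted p of 0.05. On the left *FOS* stays below 0 and *MYC* above 0 under all 5, with *FOS* from -1.35 to -0.94; on the right the 3 scalings straddle 0 for *FOS*, *MYC*, *DUSP1* and *KLF10* as they do on the left for *KLF6* and *KLF10*.

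The 2 drugs were set against each other by testing the difference between their effects, OSMI-2 minus TMG. Each drug was given in an experiment of its own, so drug and experiment cannot be told apart in these differences. At 2 h 0 of 6 genes passed and 0% of all genes did; *MYC* (0.37, SE 0.16) had an unadjusted p under 0.05, as did 1022 genes in all, and DESeq2 called 1 gene. At 6 h *MYC* passed, as did 19.9% of all genes (2125 higher and 375 lower, or 263 and 1040 with the plain total). The difference was 1.14 (SE 0.22, edgeR adjusted p 0.0111, over the alternatives 6.95e-07 to 0.0677), from a positive value with OSMI-2 and a negative one with TMG. It lost the threshold with the plain total (0.62, adjusted p 0.0656) and without OSMI-2 6 h library b (1.16, adjusted p 0.0677), and relative to the median difference of all genes it was 0.79 and, with the plain total, 0.80. *KLF10* (0.82, SE 0.33, edgeR adjusted p 0.0845) passed with the GC trend removed (0.96, adjusted p 0.0116) and without DMSO 6 h library a (1.65, adjusted p 3.39e-06), where *KLF6* passed as well (0.79, adjusted p 0.000661). Without that library 9395 of 12547 genes passed and the median of all genes was 0.88, so *KLF6* lay below the median. The values of *FOS* and *DUSP1* without that library, given next, lay below it too. With all libraries *FOS* was at -0.64 and *DUSP1* at -0.77 relative to the median difference of all genes. For *FOS*, negative with both drugs, the difference was -0.29 (SE 0.37; without library a 0.02), and for *DUSP1* -0.41 (SE 0.30; without library a -0.13; with the plain total -0.91, adjusted p 0.0475). The OSMI-2 effect at 6 h less that at 2 h gave 0 of 7 calls, against 0.111% of all genes, with 0 by DESeq2. Of the 7, 0 had an unadjusted p under 0.05, against 1845 of all 12588 genes tested. The widest was *FOS* (-0.77, SE 0.41, and without DMSO 6 h library a -0.88, edgeR adjusted p 0.0792).

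Counts within the genes were also compared across their bins. The authors' deposited table of bin usage has 0 of the 20 bins under an adjusted p of 0.05 in any of the 4 drug comparisons, the lowest being 0.635 with OSMI-2 at 6 h. Between DMSO times in the TMG experiment the share of *DUSP1* counts in the last exon (5:172195091-172196135) went from 53.5% to 54.9% at 2 h to 56.4% to 64.4% at 6 h, and that in the first exon (5:172197589-172197634) from 3.78% to 4.03% to 1.18% to 2.41%. In *KLF6* the last exon bin (10:3818186-3821782) went from 61.1% to 63.2% to 66.8% to 69.7% of counts over the same times. These ranges do not overlap, although *DUSP1* fell and *KLF6* rose. The share of all bins without such overlap was not determined, so no shift particular to these genes is read from them. The *DUSP1* first exon bin, of 46 bases, held 28, 29 and 25 counts at 2 h and 12, 9 and 5 at 6 h. In the OSMI-2 experiment the *DUSP1* last exon overlapped between the times (59.8% to 66.6% and 59.7% to 60.8%). The *KLF6* last exon there went the other way, from 76.7% to 80.4% at 2 h to 74.2% to 75.1% at 6 h, also without overlap; the difference between the experiments was not tested.

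*KLF10* has 2 alternative first exons in the authors' classes, a distal one (8:103667794-103667983) and a proximal one (8:103665698-103666168). In the TMG experiment the proximal exon took 9.30% to 14.3% of first-exon counts in DMSO at 2 h (19 of the summed counts against 140 for the distal exon) and 11.8% to 30.4% at 6 h (14 against 49). Summed over libraries this is 11.9% (exact Clopper-Pearson 95% interval 7.35% to 18.0%) and 22.2% (12.7% to 34.5%), and with TMG at 6 h 31.5% (19.5% to 45.6%). Intervals cover counting error only, and the ranges of the libraries overlap, so a change of first exon was not detectable at this depth between DMSO times.

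Genes whose log2 levels followed each member most closely over the 23 libraries are given as a description, since the libraries share depth and base composition effects and fall into 2 experiments. For *KLF10* they were *IQCH*, *ARRDC4* and *ANK2* (Pearson r 0.988, 0.980 and 0.979 among 11252 genes); *ARRDC4*, a glucose-responsive arrestin, kept r 0.888 in the 11 libraries of the OSMI-2 experiment and 0.984 in the 12 of the TMG experiment. For *KLF6* they were *ZBTB44*, *DTL* and *PPM1K* (r 0.989, 0.987 and 0.986). For *MYC* they were *HOXA13*, *JPH1* and the hexokinase gene *HK2* (r 0.961, 0.946 and 0.946), with *JPH1* at 0.417 within the TMG experiment. *DUSP1* was followed by *NRIP3*, *MRPL21* and *SLC23A3* (r 0.924, 0.902 and 0.893) and *FOS* by *PLAC1*, *SLC35B1* and *PDPN* (r 0.858, 0.831 and 0.825). The low counts of *EGR1* and *FOSL1* gave *MSX1*, *SEMA3B* and *FAM89A* (r 0.795 to 0.730) and *NGEF*, *ZBTB7C* and *TSACC* (r 0.831 to 0.819), which in such sparse counts is no finding. No member was among the 3 closest genes of another.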

How the data were processed

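Polyadenylated RNA of HEK293T cells was read in 23 libraries of 8 groups. The authors deposited 4 tables of raw counts for each bin, 1 for every pairing of drug and time, and per the file headers these are laid out as DEXSeq results. The deposited p-value and log2 fold change columns compare bin usage, and the adjusted p-value was used only where named as the authors'. STAR and hg19 are named in the submitters' processing notes; the counter, the annotation and the use of strand are not given in the sources used here, so reads of overlapping or near-identical genes may be mixed. Columns were matched to groups by name; 0 count columns were left unused.

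Gene counts were summed over bins outside detained introns. Library size was the table total, scaled by TMM over genes and detained introns for fold changes; printed CPM use the plain total. Each comparison was fitted on all genes passing filterByExpr with edgeR 4.0.16 (glmQLFit, glmQLFTest; R 4.3.3), as a two-sided test; p-values were adjusted by Benjamini-Hochberg and called under 0.05. The SE of a fold was its size divided by the root of the F statistic. Scripts were tested on simulated data. Alternatives were the plain total, median-of-ratios factors, DESeq2 1.42.0, no filter, 1 fit of all libraries, all bins, GC trend removed (12083 genes with a GC value), a replicate block by column letter, and leaving out each library; TMM over genes only was added after seeing the data. Pairs of libraries within groups differed beyond sampling noise (chi-square over degrees of freedom 4.33 to 304 in 22 pairs).

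Columns carry letters and no replicate numbers. Libraries with the same letter deviated together, at correlations of 0.127 to 0.246 for all 3 letters, only between the DMSO times of the TMG experiment, where a paired fit with the letter as block changed no call among the early genes. The members and lists were chosen with earlier results of these data known. Named were all members, and from each list at most the 2 largest rises and 2 largest falls that were called, had at least 50 counts on average and had no overlap between groups, and *OGT* and *MGEA5*. Correlations used log2(CPM + 0.5).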

Additional observations from a re-analysis of the deposited data

Results flagged for a closer look

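The effects of the 2 drugs on *MYC* at 6 h differed by 1.14 on the log2 scale (OSMI-2 minus TMG) in a test of the difference itself. With the plain total it was 0.62 (edgeR adjusted p 0.0656), and without OSMI-2 6 h library b the adjusted p was 0.0677; the median difference of all genes was 0.357. *MYC* had 12.4 and 12.1 CPM with OSMI-2 against 8.70 to 10.5 CPM in its DMSO libraries, and 15 to 15.3 CPM with TMG against 16.4 to 20 CPM. Drug and experiment cannot be told apart in this difference, because each drug was given in an experiment of its own. The difference given next uses the same DMSO 6 h libraries with opposite sign, so the 2 results are not independent.

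The change of *MYC* between 2 h and 6 h in DMSO differed between the experiments by -0.77 (OSMI-2 minus TMG experiment), from 7.50 to 9.59 CPM at 2 h and 8.70 to 10.5 CPM at 6 h in the OSMI-2 experiment and from 14.9 to 15.4 CPM and 16.4 to 20 CPM in the TMG experiment. This value moved to -0.12 with the plain table total, where the median of all genes moved from -0.288 to 0.38. Relative to that median *MYC* was at -0.48, at -0.5 with the plain total and at -0.49 with TMM over genes only.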

How the results depend on the processing

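A tally was made over the members tested in the 2-group comparisons and over the *MYC* differences flagged above. Of its values 446 kept direction and side of the threshold, 19 turned direction, 19 gained the threshold and 15 lost it. Differences that were not called as designed are outside this tally, and some of these turned direction too, as given below. For OSMI-2 at 6 h the number of early genes called was 0, and 3 in 1 fit of all libraries, 2 with the GC trend removed and 0 to 3 on leaving out a library. For TMG at 6 h it was 0, and 1 by DESeq2, with TMM over genes only, with the GC trend removed and with the replicate block (*KLF6*, edgeR adjusted p 0.0322; 0 to 1 on leaving out a library). Between DMSO times it was 0 in the OSMI-2 experiment, and 1 in 1 fit (0 to 1), and 4 in the TMG experiment, and 2 in 1 fit (3 to 5). The drug difference at 6 h had 1, and 2 with median-of-ratios factors, in 1 fit and with the GC trend removed (0 to 3). The OSMI-2 difference between times had 0, and 1 in 1 fit (*MYC* 0.65, adjusted p 0.0163 by edgeR). The DMSO time difference had 1, and 0 with TMM over genes only (0 to 2). With the plain total both differences also had 1, but *DUSP1* and *FOS* respectively in place of *MYC*; the *MYC* values were 0.62 and -0.12, and -0.58 with TMM over genes only for the time difference. On leaving out a library they ran from 1.06 to 1.56 and from -0.99 to -0.69.

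Several directions turned. With OSMI-2 at 2 h, *DUSP1* was 0.053 in 1 fit and -0.245 to 0.125 on leaving out a library, *KLF6* -0.4 to 0.013, and *KLF10* -0.002 with the plain total and -0.125 to 0.114 on leaving out a library. With OSMI-2 at 6 h, *KLF6* was -0.334 with the plain total, -0.15 with TMM over genes only and -0.068 to 0.484 on leaving out a library, and *KLF10* -0.021 with the plain total. Between DMSO times in the OSMI-2 experiment, the plain total gave *FOS* 0.277, *MYC* 0.118, *DUSP1* 0.147 and *KLF10* 0.223, TMM over genes only *FOS* 0.026, and leaving out a library *KLF6* -0.19 (without DMSO 6 h library a) to 0.334. With the plain total *KLF6* in the DMSO time difference turned from -0.61 to 0.09, *KLF10* and *KLF6* in the OSMI-2 time difference from 0.36 and 0.19 to -0.01 and -0.18, and *DUSP1* and *FOS* in the drug difference at 2 h from 0.10 and 0.07 to -0.01 and -0.02 (-0.005 and -0.03 with TMM over genes only; *DUSP1* -0.03 with the GC trend removed). Median-of-ratios factors turned the drug difference at 6 h of *FOS* (0.11), *DUSP1* (0.002) and *KLF6* (0.33; 0.13 with the GC trend removed) and the DMSO time difference of *DUSP1* (-0.16). The cause was not tested.

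Counts of all genes called moved by over 1.5 times as follows. OSMI-2 at 6 h had 608, and 0 with the plain total or the replicate block, 946 with median-of-ratios factors, 3616 with the GC trend removed and 5974 in 1 fit. TMG at 2 h had 978, and 603 with the plain total and 0 in 1 fit. TMG at 6 h had 737, and 1371 with the replicate block, 1491 with the GC trend removed and 2 in 1 fit. DMSO time had 2292 in the OSMI-2 experiment (1135 with TMM over genes only, 5271 GC, 6137 in 1 fit) and 5641 in the TMG experiment (1829 in 1 fit). The drug difference at 6 h had 2500 (1303 plain total, 5416 median-of-ratios, 4037 in 1 fit, 1035 TMM over genes only, 5496 GC). The OSMI-2 time difference had 14 (0 plain total, 181 DESeq2, 2477 in 1 fit, 22 TMM over genes only, 2230 GC), the TMG one 3 (6, 19 and 0 in the same order, and 30 GC). The DMSO time difference had 1661 (2644 plain total, 3655 in 1 fit, 980 TMM over genes only, 4845 GC). Leaving out 1 library gave 0 to 5263 genes for OSMI-2 at 6 h, 243 to 1212 for TMG at 2 h and 89 to 1248 at 6 h, and 518 to 4592 for DMSO time in the OSMI-2 experiment. It gave 0 to 279 and 22 to 9395 for the drug difference at 2 h and 6 h, 0 to 1610 and 1 to 69 for the OSMI-2 and TMG time differences, and 493 to 7130 for the DMSO time difference. The highest were without DMSO 6 h library a of the OSMI-2 experiment in each comparison that held it.

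The replicate block changed no other call among the early genes. Of 17 same-letter pairs 10 correlated above 0.1 (range -0.618 to 0.706). Counts of 0 to 19 limit *EGR1* and *FOSL1*.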
